A study of Homo sapiens with 2 samples.

Results

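The 8 genes ENTPD3, DPP4, CD9, ST8SIA1, TSPAN7, TM4SF4, NCAM1 and FXYD2 encode surface proteins used to sort islet cells with antibodies or, in the case of ST8SIA1, an enzyme that makes a surface glycolipid. They were taken by gene symbol from the 33694 genes counted in each library. Their transcripts were measured by single-cell RNA sequencing (10x) in eBCs, clusters of beta-like cells differentiated from the human embryonic stem cell line MEL-1. All cells were of the iSOX9KO line, 1 clone that carries an INS-GFP reporter, a doxycycline (DOX) inducible Cas9 in the AAVS1 locus and constitutive guide RNAs against SOX9, so both groups shared these alleles. One group received no DOX (0 ug/ml) and the other received DOX at 2 ug/ml from day 12 of differentiation. Each group was 1 library, so no difference between the groups could be tested, and the intervals given below are 95% intervals that cover counting error only. Cells with high INS-GFP were sorted after DOX had begun and then reaggregated, and the share of each cell type reflects that sort.

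Surface markers allow living islet cells to be separated without a reporter, because an antibody reaches the protein from outside the cell. ENTPD3 hydrolyses extracellular nucleotides and is a surface antigen of adult human beta cells. DPP4, a peptidase that inactivates incretin hormones, is found on human alpha cells, and TM4SF4, a membrane protein of the L6 family, has been used to enrich alpha cells. The tetraspanin CD9 and the ganglioside made by ST8SIA1 have been used together to divide adult beta cells into subtypes. TSPAN7 is a tetraspanin and an autoantigen in autoimmune diabetes, NCAM1 is an adhesion molecule of neuroendocrine cells, and FXYD2 is a regulatory subunit of the sodium pump.

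In the GENCODE 44 annotation of GRCh38 all 8 are protein-coding genes. ENTPD3 (ENSG00000168032) lies on the plus strand of chromosome 3 from 40387184 to 40428744, and TM4SF4 (ENSG00000169903) on the plus strand of chromosome 3 from 149474697 to 149503394. DPP4 (ENSG00000197635) lies on the minus strand of chromosome 2 from 161992245 to 162074394. CD9 (ENSG00000010278) lies on the plus strand of chromosome 12 from 6199715 to 6238271, and ST8SIA1 (ENSG00000111728) on the minus strand of chromosome 12 from 22063773 to 22437041. TSPAN7 (ENSG00000156298) lies on the plus strand of chromosome X from 38561542 to 38688920. NCAM1 (ENSG00000149294) lies on the plus strand of chromosome 11 from 112961275 to 113278436, and FXYD2 (ENSG00000137731) on the minus strand of chromosome 11 from 117800844 to 117828698. FXYD2 overlaps the readthrough gene FXYD6-FXYD2 on the same strand over 8536 bases, so that reads of this pair could be split between them or left uncounted. ENTPD3 overlaps ENTPD3-AS1 on the opposite strand over 41561 bases, and whether the counting used strand is not given in the sources used here.

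The RefSeq promoter table held 5 of the 8 genes, namely ENTPD3, DPP4, CD9, ST8SIA1 and TM4SF4. The 250 bases before the start are shown for ENTPD3 and TM4SF4, which differed in opposite directions between the beta-like clusters described below. Both run 5′ to 3′ on the plus strand of GRCh38.p14, at chr3:40386934-40387183 for ENTPD3 and at chr3:149474447-149474696 for TM4SF4. Capitals mark matches on either strand to 4 motifs, and neighbouring matches can overlap. The GC box was searched as GGGCGG. The TATA box was searched as TATAAA. The core of homeodomain sites was searched as TAAT, and the CCAAT box by the letters of its name.
ENTPD3: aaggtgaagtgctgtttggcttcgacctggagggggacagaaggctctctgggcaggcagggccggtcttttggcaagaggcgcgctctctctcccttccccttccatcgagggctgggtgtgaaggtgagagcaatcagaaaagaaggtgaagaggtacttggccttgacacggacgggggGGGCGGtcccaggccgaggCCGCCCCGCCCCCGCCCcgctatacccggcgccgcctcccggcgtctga
TM4SF4: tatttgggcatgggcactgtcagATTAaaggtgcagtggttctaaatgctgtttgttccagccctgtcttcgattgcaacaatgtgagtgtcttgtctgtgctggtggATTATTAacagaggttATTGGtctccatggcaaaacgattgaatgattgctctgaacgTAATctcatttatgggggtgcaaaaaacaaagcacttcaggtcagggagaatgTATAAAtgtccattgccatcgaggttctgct
The ENTPD3 window was 66.0% G and C and held 4 GC box matches and none of the other letters. The TM4SF4 window was 43.2% G and C and held 1 TATA box match beginning 31 bases before the start, 4 homeodomain core matches, 1 CCAAT box match and no GC box match. Of 35116 promoters, 42.6% held the GC box letters in the same window, 10.7% the TATA box, 47.4% the homeodomain core and 32.0% the CCAAT box, and their median G and C content was 58.0%. A match describes letters and not binding.

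The no DOX labelled library held 30288 barcodes with a median of 15991 UMIs (unique molecular identifiers, counts of single transcripts), and the DOX labelled one held 31817 with a median of 14431. The libraries shared 369 barcode sequences. After removal of barcodes under 1000 UMIs and of predicted doublets, 44926 cells were kept. Over all kept cells the targeted gene SOX9 was at 2.998 UMIs per 1000000 UMIs (CPM) for no DOX and at 3.78 for DOX. This pooled RNA level was thus not lower where the label gives Cas9 induction. In the duct-like cells named below SOX9 was at 251.5 and 282.5 CPM. In beta-like cells it was at 0.299 and 0.213 CPM (log2 ratio of DOX over no DOX -0.49, -1.20 to 0.22). The RNA level does not measure SOX9 protein, which the paper reported as knocked down by DOX in a western blot. The 2 libraries are called by what their labels say. Cells were clustered with the 8 genes left out, and 6 of 7 clusters were named from 13 to 16 markers each. All of these had UMIs in their own class in both libraries, but most had UMIs in other classes too. The 16 beta-like markers summed to 5114 and 4539 CPM in beta-like cells and to at most 1467 CPM in other classes. The classes held 16792 beta-like, 9077 alpha-like, 4562 delta-like and 332 duct-like cells, and among progenitors 10867 beta cell progenitor-like and 965 proliferating progenitor-like cells. The 10 genes that led the beta-like cluster included the metallothioneins MT1M, MT1H, MT1B and MT1G, and those of the duct-like cluster included the inflammatory genes CCL2 and IL32. The other 2331 cells had a median of 1978 UMIs, of which 70.8% were mitochondrial, and were left unnamed. INS was at 194720 CPM in beta-like, 135730 CPM in alpha-like and 135310 CPM in delta-like cells. The duct-like cells also held the largest summed levels of 5 acinar markers (41.2 and 46.2 CPM in the no DOX and DOX labelled libraries, at most 5.08 in other classes) and of 5 pluripotency markers (35.7 and 22.3, at most 1.01 in other classes), with PNLIP and POU5F1 at 0 in both. These sums rest on few genes, since 2 acinar markers and 1 pluripotency marker reached 5 CPM there in each library. Proliferation markers summed to 1371 and 1548 CPM in them. The part of what these markers stand for in the duct-like values was not tested.

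The level of a gene is given in CPM, as its UMIs summed over the cells of a class and divided by all UMIs of that class. Levels are compared between cells for 1 gene and not between genes. Of the 8 genes, 6 reached 5 CPM over both libraries in at least 1 class, and CD9 and ST8SIA1 did not. Of all genes that reached 5 CPM, 17.6% were at least 2-fold higher in their highest class than in the next, and of the 6 these were ENTPD3 and DPP4.

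**Figure D1:**
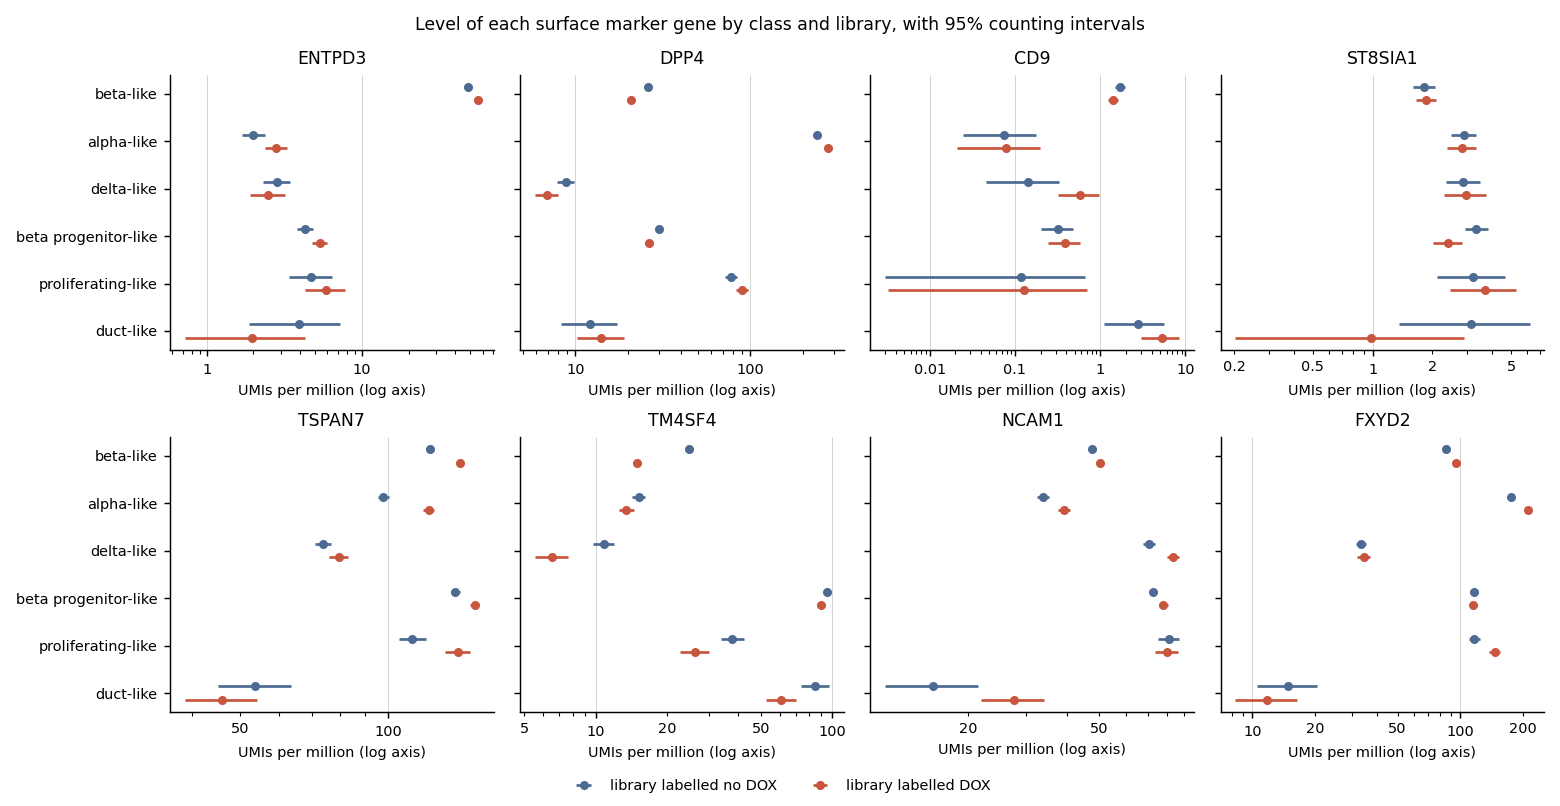
Level of the 8 genes in 6 cell classes, in CPM (UMIs per 1000000 UMIs) on a log axis with its own range for each gene, in the libraries labelled no DOX (blue) and DOX (red). Rows named beta progenitor-like and proliferating-like are the beta cell progenitor-like and proliferating progenitor-like classes. Points are sums over the cells of a class and bars are exact Poisson 95% intervals. ENTPD3 was at 48.5 and 55.8 in beta-like cells and at most 5.84 elsewhere, DPP4 and FXYD2 were highest in alpha-like cells, and TM4SF4 in beta cell progenitor-like cells.

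ENTPD3 was high in beta-like cells and low in every other class. Its beta-like level was 48.5 CPM (47.3 to 49.7) for no DOX and 55.8 CPM (54.6 to 57.0) for DOX, and no other class exceeded 5.84 CPM in either. Over both libraries beta-like cells stood 22.2-fold above alpha-like cells (log2 ratio 4.48, 4.30 to 4.65), 10.96-fold above beta cell progenitor-like cells and 9.96-fold above proliferating progenitor-like cells, the next class. The order below the beta-like cells was proliferating progenitor-like (5.27 CPM), beta cell progenitor-like (4.79 CPM), duct-like (2.86 CPM), delta-like (2.70 CPM) and alpha-like cells (2.36 CPM). Of these neighbours only the beta cell progenitor-like and duct-like cells differed beyond counting error (log2 ratio 0.74, 0.03 to 1.56), and this did not hold for the finer cluster of 7829 beta cell progenitor-like cells, with ENTPD3 at 1.09 and 2.11 CPM. INS in duct-like cells was at 11.7% of its level over all kept cells, and the same share of ENTPD3 would be 3.05 CPM, beside the 2.86 CPM found. In the no DOX labelled library the level was 3.92 CPM against a share of 2.90 CPM, and in the DOX labelled one 1.97 against 3.15 CPM. Such a share takes free RNA to have the make-up of all kept cells and all INS in duct-like cells to be free RNA. Neither was tested. The antisense gene ENTPD3-AS1 did not follow this order and was at 6.06 to 8.59 CPM in the 6 classes.

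DPP4 and FXYD2 were highest in alpha-like cells. DPP4 was at 242 and 278 CPM in the alpha-like cells of the no DOX and DOX labelled libraries, at 77.5 and 89.8 CPM in proliferating progenitor-like cells, at 30.0 and 26.5 CPM among beta cell progenitor-like cells and at 26.2 and 20.8 CPM in beta-like cells. Alpha-like cells therefore stood 11.1-fold above beta-like cells over both libraries (log2 ratio 3.47, 3.43 to 3.51). Each class in the order of DPP4 levels differed from the next beyond counting error, down to 13.2 CPM in duct-like and 8.04 CPM in delta-like cells. The duct-like level rests on 74 UMIs. By the same share of INS in duct-like cells (11.7%), DPP4 there would be at 8.07 CPM, and the part of free RNA was not tested. The proliferating progenitor-like cells also held alpha-like markers, at a summed 7699 and 12690 CPM, and the part of these in their DPP4 level was not tested. With 15 neighbours not balanced between the libraries, beta-like and proliferating progenitor-like cells no longer differed by 2-fold in DPP4 (log2 ratio 0.067 in place of -1.84).

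FXYD2 was at 176 and 212 CPM in the alpha-like cells of the no DOX and DOX labelled libraries, at 117 and 147 CPM in proliferating progenitor-like cells and at 116 and 116 CPM among beta cell progenitor-like cells. Beta-like cells were lower, at 85.1 and 95.8 CPM, and alpha-like cells stood 2.11-fold above them (log2 ratio 1.08, 1.05 to 1.10). Delta-like cells were at 33.8 CPM over both libraries. Duct-like cells were at 13.2 CPM. At the share of its overall level that INS had in them, FXYD2 would be at 12.8 CPM, and the part of free RNA was not tested. The readthrough gene FXYD6-FXYD2 was at 0.357 to 5.86 CPM, so that few reads were assigned to it. How many reads of the shared bases were left uncounted cannot be told from these counts.

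TM4SF4 was highest in beta cell progenitor-like cells. It was at 94.8 and 89.8 CPM there in the no DOX and DOX labelled libraries, at 84.4 and 60.6 CPM in duct-like cells, at 37.8 and 26.3 CPM in proliferating progenitor-like cells and at 24.85 and 14.97 CPM in beta-like cells. Alpha-like cells, at 15.2 and 13.5 CPM, were 1.35-fold below beta-like cells over both libraries (log2 ratio of beta-like over alpha-like cells 0.43, 0.35 to 0.51), although the values of the 2 libraries overlapped. The duct-like level was 71.4 CPM over both libraries. At the share of its overall level that INS had in duct-like cells (11.7%), TM4SF4 would be at 3.89 CPM, and the part of free RNA was not tested. Delta-like cells had the lowest level, at 10.8 and 6.51 CPM.

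TSPAN7 and NCAM1 had the smallest spread between classes of the 6 genes above 5 CPM. TSPAN7 was at 143 CPM over both libraries in beta cell progenitor-like, 132 CPM in beta-like, 125 CPM among proliferating progenitor-like and 108 CPM in alpha-like cells. Each library alone gave this order, and over both each step was beyond counting error, but the library values of neighbouring classes overlapped. The top step depends on hormone UMIs being counted in the totals. INS made up 194720 CPM of the beta-like totals, against 68699 CPM of the beta cell progenitor-like totals. Without hormone UMIs in the totals beta-like cells would stand first. TSPAN7 was lower in delta-like (73.8 and 79.4 CPM) and duct-like cells (53.8 and 45.9 CPM). NCAM1 was at 80.6, 75.9 and 75.2 CPM in proliferating progenitor-like, delta-like and beta cell progenitor-like cells. The delta-like level did not differ beyond counting error from either of the other 2, but this depends on hormone UMIs being counted in the totals. SST made up 219260 CPM of the delta-like totals. Its share was 17244 CPM for proliferating progenitor-like and 2445 CPM for beta cell progenitor-like cells. Without hormone UMIs in the totals the delta-like level of NCAM1 would stand above the other 2. NCAM1 was at 49.1 CPM in beta-like, 36.04 CPM in alpha-like and 22.1 CPM in duct-like cells, each lower than the last beyond counting error.

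CD9 and ST8SIA1 were rarely detected. CD9 had 221 and 219 UMIs in the beta-like cells of the no DOX and DOX labelled libraries, or 1.69 and 1.41 CPM, and 7 and 16 UMIs in duct-like cells, or 2.75 and 5.24 CPM. Alpha-like cells held 5 and 4 UMIs of CD9, and beta-like cells stood 20.3-fold above them (log2 ratio 4.34, 3.40 to 5.48). ST8SIA1 was between 1.84 CPM in beta-like and 3.43 CPM among proliferating progenitor-like cells. No class differed from the next in its order beyond counting error, but beta-like cells were below alpha-like cells (log2 ratio -0.63, -0.83 to -0.43) and below beta cell progenitor-like cells (-0.65, -0.85 to -0.46).

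The 6 genes above 5 CPM were then counted at a 2-fold difference between beta-like cells and each other class. Against alpha-like cells 1 gene (ENTPD3) was higher and 2 (DPP4 and FXYD2) were lower, where 5.4% of all genes tested were higher and 6.08% lower. Against delta-like cells 4 genes (ENTPD3, DPP4, TM4SF4 and FXYD2) were higher and 0 lower (5.92% and 5.05% of all genes). TM4SF4 passed narrowly, at 19.5 against 9.08 CPM, and its call depends on hormone UMIs being counted in the totals. SST was at 4208 CPM in beta-like and 219260 CPM in delta-like cells. Against beta cell progenitor-like cells ENTPD3 was higher and TM4SF4 lower (3.71% and 26.3%), and against proliferating progenitor-like cells ENTPD3 was higher and DPP4 lower (3.5% and 19.2%). Against duct-like cells 4 genes (ENTPD3, TSPAN7, NCAM1 and FXYD2) were higher and TM4SF4 was lower (13.5% and 24.0%). The median log2 ratio of the 6 genes was 0.36 against alpha-like, 1.27 against delta-like, -0.32 against beta cell progenitor-like, -0.62 against proliferating progenitor-like and 1.28 against duct-like cells. Over all genes tested the medians were -0.04, 0.06, -0.58, -0.33 and -0.29. FXYD2 no longer passed 2-fold between beta-like and alpha-like cells when predicted doublets were kept.

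How many single cells showed each transcript was compared after each cell had been thinned to 5000 UMIs, which left out 677 beta-like, 1100 alpha-like and 7 duct-like cells with fewer UMIs. ENTPD3 had a UMI in 20.1% (19.5 to 20.7) of 16115 beta-like cells. In duct-like cells the share was 1.23% (0.336 to 3.12) of 325 cells, and whether these cells lack ENTPD3 was not tested. Alpha-like (1.24%), delta-like (1.502%) and beta cell progenitor-like cells (1.43%) were within that wide interval. Proliferating progenitor-like cells were at 2.10% (1.27 to 3.27), also within it. With 325 duct-like cells these shares could not be told apart from the duct-like share. Summed ENTPD3 UMIs did separate some of these classes, with 5.27 CPM (4.21 to 6.50) in proliferating progenitor-like and 2.36 CPM (2.09 to 2.65) in alpha-like cells. Without thinning the share was 42.5% in beta-like cells, with a median of 15924.5 UMIs, and 4.52% in duct-like cells, with a median of 14516.5 UMIs. DPP4 had a UMI in 54.6% of alpha-like, 25.1% of proliferating progenitor-like, 12.8% of beta cell progenitor-like and 8.65% of beta-like cells, against 3.78% of delta-like cells. TM4SF4 had a UMI in 29.7% of beta cell progenitor-like and 7.12% of beta-like cells, against 4.18% of delta-like cells. Without thinning DPP4 had a UMI in 68.7% of alpha-like cells and TM4SF4 in 43.1% of beta cell progenitor-like cells.

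**Figure D2:**
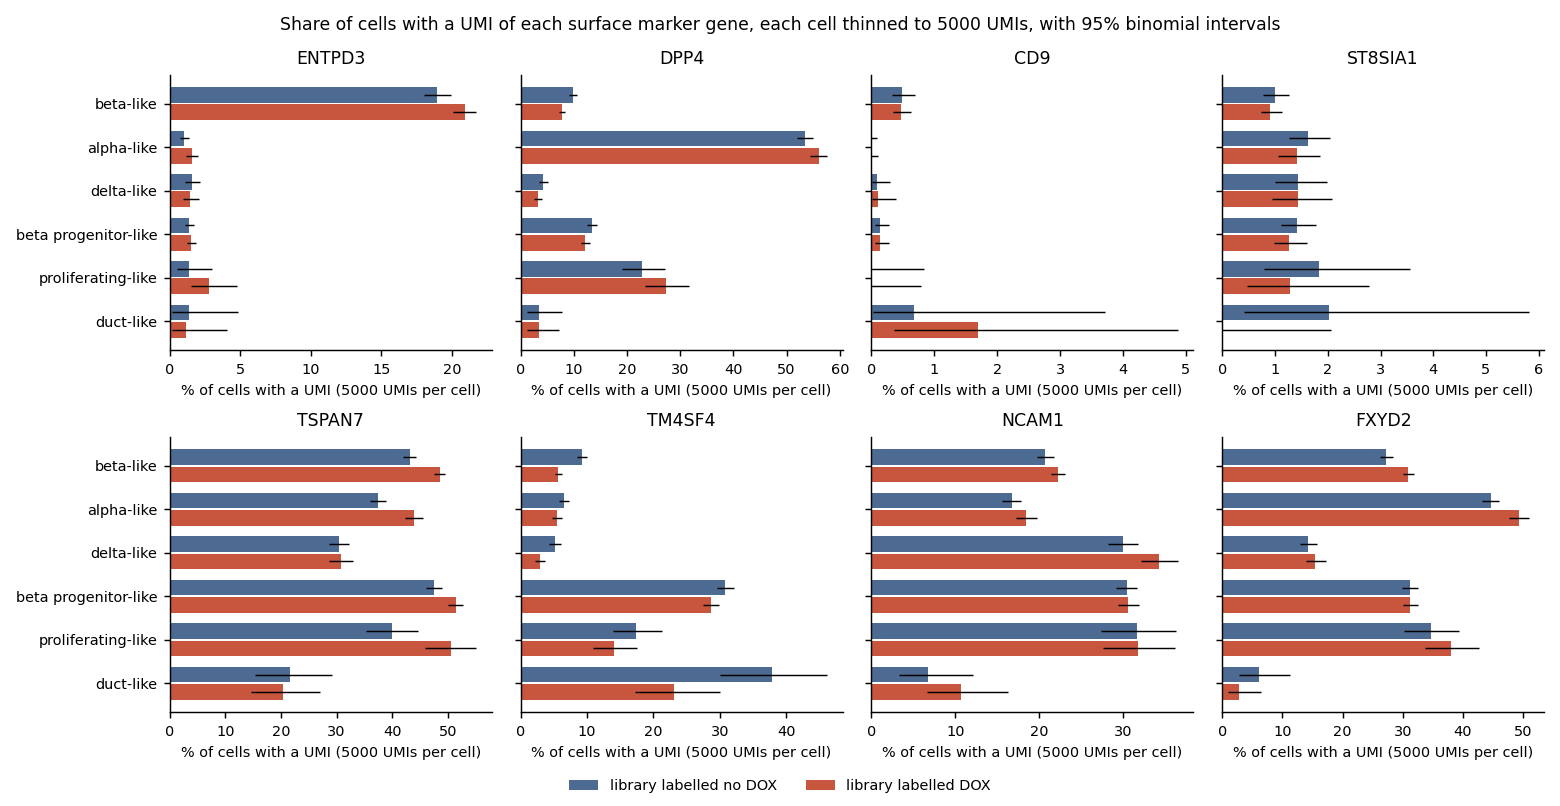
Share of cells with at least 1 UMI of each gene, in percent, by class in the libraries labelled no DOX (blue) and DOX (red), with each cell thinned to 5000 UMIs. Bars start at 0, have their own scale for each gene and carry exact binomial 95% intervals. ENTPD3 was detected in 20.1% of beta-like cells and DPP4 in 54.6% of alpha-like cells over both libraries, and CD9 and ST8SIA1 in few cells of any class.

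Read the other way, the cells with a given transcript fell into the classes as follows, within these sorted and reaggregated cells. Of 40156 thinned cells, 40.1% were beta-like and 19.9% alpha-like. Of 3582 cells with a UMI of ENTPD3, 90.5% (89.5 to 91.4) were beta-like, and of 198 cells with at least 3 UMIs, 194 were. Of 7509 cells with a UMI of DPP4, 58.0% (56.9 to 59.1) were alpha-like and 18.6% beta-like, and of 1553 cells with at least 3 UMIs, 92.9% were alpha-like. ENTPD3 without DPP4 was found in 3257 cells, of which 91.9% were beta-like and 1.47% alpha-like, and both together in 325 cells, of which 248 were beta-like and 51 alpha-like. Of 5167 cells with a UMI of TM4SF4, 60.2% were beta cell progenitor-like and 9.35% alpha-like, and of 688 cells with at least 3 UMIs, 84.9% were beta cell progenitor-like. Cells with a UMI of TSPAN7 were 42.2% beta-like, close to the share of beta-like cells among all cells.

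CD9 and ST8SIA1, used together to divide adult beta cells, could not be resolved in single cells at this depth. Of 16115 beta-like cells thinned to 5000 UMIs, 77 held CD9 alone, 153 held ST8SIA1 alone and 0 held UMIs of both. At 3 counts, 0 allows up to 0.0186% of thinned cells with UMIs of both, which limits detection at this depth and not expression, and independent transcripts would give 0.00454%. Without thinning, 7 of 16792 beta-like cells held both, or 0.0417% (0.0168 to 0.0859). CD9 had a UMI in 0 of 7977 thinned alpha-like cells, which allows up to 0.0376% of thinned cells with a UMI, and in 0.0992% of alpha-like cells without thinning.

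At a finer resolution 9235 cells formed a cluster named Beta-1-like and 5844 a cluster named Beta-2-like, from 14 and 13 markers. All 8 genes differed between them beyond counting error and in the same direction in each library. The share of all genes that did so was not counted, and with this many UMIs small differences also pass. ENTPD3 was at 39.7 and 45.1 CPM in the Beta-1-like cells of the no DOX and DOX labelled libraries and at 73.5 and 84.8 CPM in Beta-2-like cells, which stood 1.85-fold higher. CD9 was at 0.162 and 0.153 CPM in Beta-1-like and at 3.83 and 3.74 CPM in Beta-2-like cells, 24.1-fold higher (log2 ratio 4.59, 3.99 to 5.27). TM4SF4 had the opposite order, with 38.1 and 20.7 CPM in Beta-1-like and 6.06 and 3.28 CPM in Beta-2-like cells (log2 ratio of Beta-2-like over Beta-1-like cells -2.61, -2.74 to -2.47). DPP4 was at 29.7 and 24.0 CPM in Beta-1-like and at 13.8 and 10.1 CPM in Beta-2-like cells (log2 ratio -1.16, -1.25 to -1.06).

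The other 4 genes differed less between these clusters. Beta-2-like cells were 1.55-fold higher for ST8SIA1, 1.34-fold for NCAM1 and 1.16-fold for FXYD2, and they were lower for TSPAN7 (log2 ratio -0.35, -0.38 to -0.32). Of all genes at 5 CPM, 3.89% were at least 2-fold higher and 2.0% at least 2-fold lower in Beta-2-like cells, and of the 6 genes tested 0 were higher and 2, DPP4 and TM4SF4, were lower. Thinned to 5000 UMIs, ENTPD3 had a UMI in 17.6% of Beta-1-like and 27.8% of Beta-2-like cells, TM4SF4 in 9.61% and 2.35%, and CD9 in 7 of 8969 and 67 of 5704 cells. Median depths were 14865 and 16918 UMIs.

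Within beta-like cells some transcripts occurred together more or less often than their separate shares would give. DPP4 and TM4SF4 were found together in 179 thinned beta-like cells, 1.80 times the 99.3 expected from independence, and the ratio was 1.66 within Beta-1-like cells. Within Beta-2-like cells they were found together in 12 cells, of which 1 was in the DOX labelled library. ENTPD3 and TM4SF4 were found together in 148 cells, 0.641 times the 231 expected, and the ratio was 0.705 within Beta-1-like cells and 0.968 within Beta-2-like cells. These counts are over cells of 2 libraries and carry no test.

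**Figure D3:**
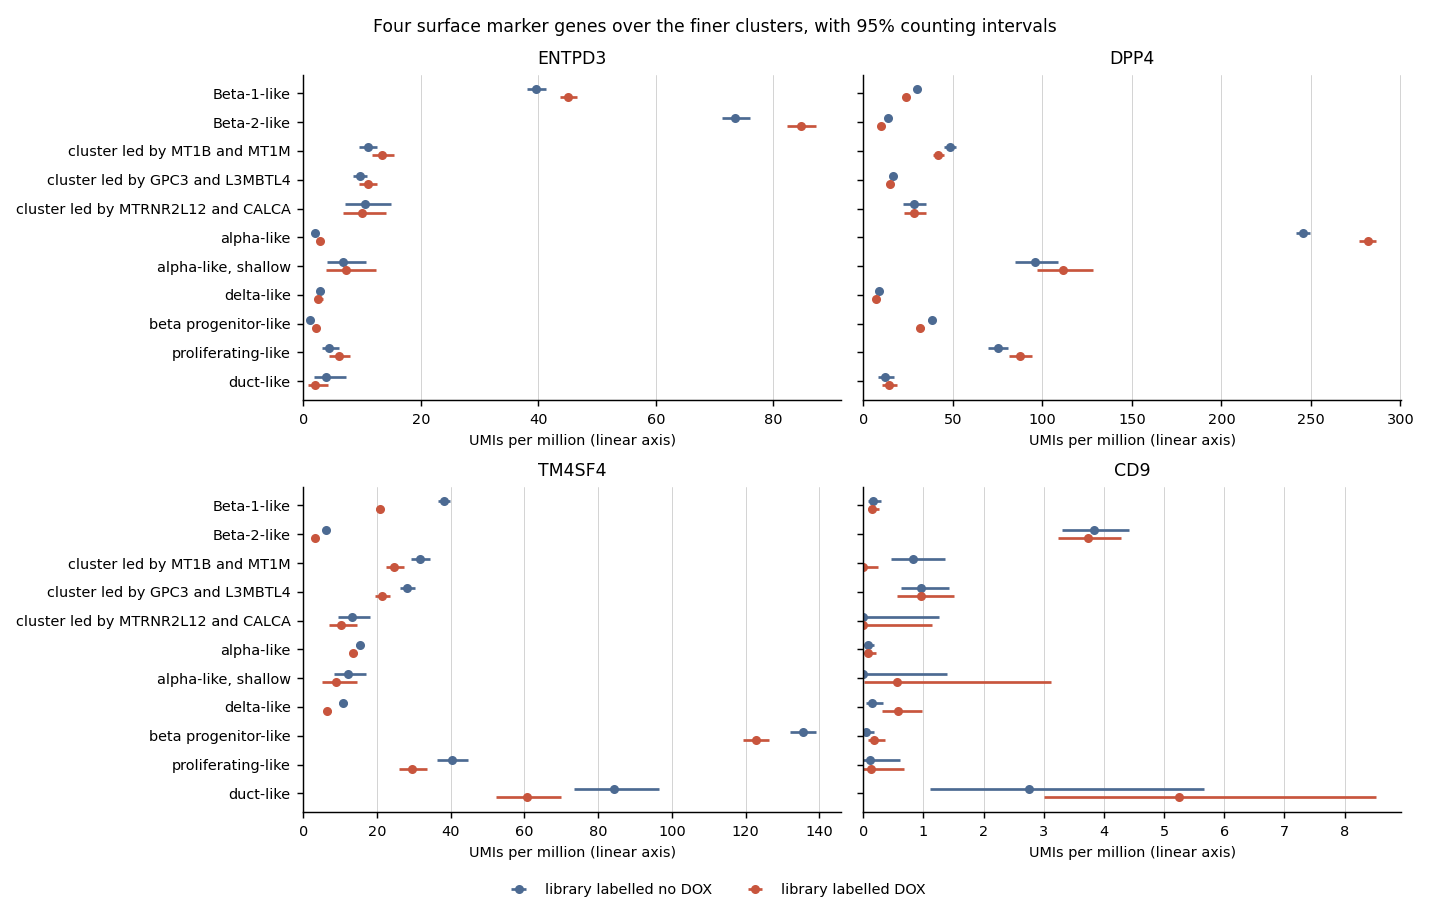
Levels of ENTPD3, DPP4, TM4SF4 and CD9 over 11 finer clusters, in CPM on a linear axis from 0 with its own range for each gene, in the libraries labelled no DOX (blue) and DOX (red). Points are sums over cells and bars are exact Poisson 95% intervals. In both libraries ENTPD3 and CD9 were higher in Beta-2-like than in Beta-1-like cells, and DPP4 and TM4SF4 were lower.

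Clusters without a name held other levels. A cluster of 1436 cells led by the metallothionein genes MT1B and MT1M had ENTPD3 at 10.9 and 13.4 CPM in the no DOX and DOX labelled libraries, well below Beta-1-like cells (log2 ratio -1.83, -1.97 to -1.68), and DPP4 at 48.5 and 42.0 CPM, 1.72-fold above them. ENTPD3 was the 1 of 6 genes at least 2-fold lower, where 1.53% of all genes were, and 0 were higher, where 1.47% were. Its TM4SF4 level was below that of Beta-1-like cells in the no DOX labelled library (log2 ratio -0.27) and above it in the DOX labelled library (0.26). A cluster of 2977 cells led by GPC3 and L3MBTL4 had ENTPD3 at 9.56 and 10.97 CPM and FXYD2 at 159 and 170 CPM. The finer clusters named alpha-like held 8095 cells with DPP4 at 261 CPM over both libraries and 1372 cells with a median of 2795 UMIs, in which DPP4 was at 102 CPM.

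The design compares cells with and without DOX, to ask what loss of SOX9 changes in eBCs. With 1 library in each group, an effect of DOX and a difference between cultures or libraries cannot be told apart. Over all kept cells 0.0287% of genes at 5 CPM were at least 2-fold higher and 0.0957% at least 2-fold lower in the DOX labelled library, and 0 of the 6 genes were either. The same held in each class, namely in beta-like cells (0.0102% and 0.153% of genes, 0 of 6), alpha-like cells (0.0302% and 0.191%, 0 of 5), delta-like cells (0.01% and 0.04%, 0 of 5), beta cell progenitor-like cells (0.037% and 0.0647%, 0 of 6), proliferating progenitor-like cells (0.173% and 0.265%, 0 of 6) and duct-like cells (2.52% and 3.09%, 0 of 6). The median log2 ratio of these genes was 0.11 over all kept cells, 0.13 in beta-like, 0.21 in alpha-like and 0.26 in proliferating progenitor-like cells, against -0.01, -0.01, 0.03 and -0.0051 over all genes tested. It was close to that of all genes in delta-like (0.042 against 0.042), beta cell progenitor-like (0.050 against 0.014) and duct-like cells (-0.0081 against -0.0090). Beta-like cells numbered 6962 and 9830 in the no DOX and DOX labelled libraries, with 3454 and 5781 Beta-1-like and 2636 and 3208 Beta-2-like cells.

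TM4SF4 was lower in the DOX labelled library in all 6 classes, beyond counting error in each. In beta-like cells its level was 24.85 CPM (24.0 to 25.7) in the no DOX labelled library against 14.97 CPM (14.4 to 15.6) in the DOX labelled one (log2 ratio -0.73, -0.81 to -0.65). The ratio was -0.73 in delta-like, -0.53 in proliferating progenitor-like, -0.48 in duct-like and -0.17 in alpha-like cells, and -0.08 (-0.13 to -0.02) in beta cell progenitor-like cells, where the level was highest, and -0.14 (-0.20 to -0.09) in the finer cluster of that name. Within Beta-1-like and Beta-2-like cells it was -0.88 and -0.89. It was smaller in the finer clusters led by MT1B and MT1M (-0.36, -0.55 to -0.17) and by GPC3 and L3MBTL4 (-0.40, -0.58 to -0.22).

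DPP4 differed in opposite directions by class. In alpha-like cells it was at 242 CPM in the no DOX labelled library and at 278 CPM in the DOX labelled one (log2 ratio 0.20, 0.17 to 0.24), and in beta-like cells at 26.2 and 20.8 CPM (log2 ratio -0.33, -0.40 to -0.26). Alpha-like cells of the DOX labelled library also held more GCG, the glucagon gene (24153 against 19306 CPM), and less INS (119360 against 148330 CPM), and the part of these in the DPP4 level was not tested.

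No other gene lay on 1 side of 0 beyond counting error in all 6 classes. ENTPD3 had a log2 ratio of 0.20 (0.16 to 0.25) in beta-like, 0.49 (0.14 to 0.84) in alpha-like and 0.31 (0.08 to 0.54) in beta cell progenitor-like cells. In the finer beta cell progenitor-like cluster the ratio was 0.96 (0.42 to 1.51), and in the cluster led by GPC3 and L3MBTL4 its interval held 0. It was 0.47 over all kept cells, in which the DOX labelled library held more beta-like cells. TSPAN7 was higher in 5 of 6 classes, by 0.11 to 0.31, and its ratio in duct-like cells was -0.23 (-0.58 to 0.12). FXYD2 had a ratio of 0.17 in beta-like and 0.27 in alpha-like cells, and NCAM1 of 0.08 and 0.21. In duct-like cells NCAM1 was at 15.7 and 27.5 CPM (log2 ratio 0.81, 0.25 to 1.39). ST8SIA1 was lower in the DOX labelled library among beta cell progenitor-like cells (-0.47, -0.79 to -0.17) and over all kept cells (-0.17, -0.32 to -0.02). For CD9 (-0.26, -0.53 to 0.02) and ST8SIA1 (0.04, -0.21 to 0.29) in beta-like cells no difference was detectable at this depth. Over the 6 classes, CD9 in delta-like cells had the only ratio past 2-fold whose interval excluded 0 (2.05, 0.49 to 3.88), and it rests on 5 and 14 UMIs.

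**Figure D4:**
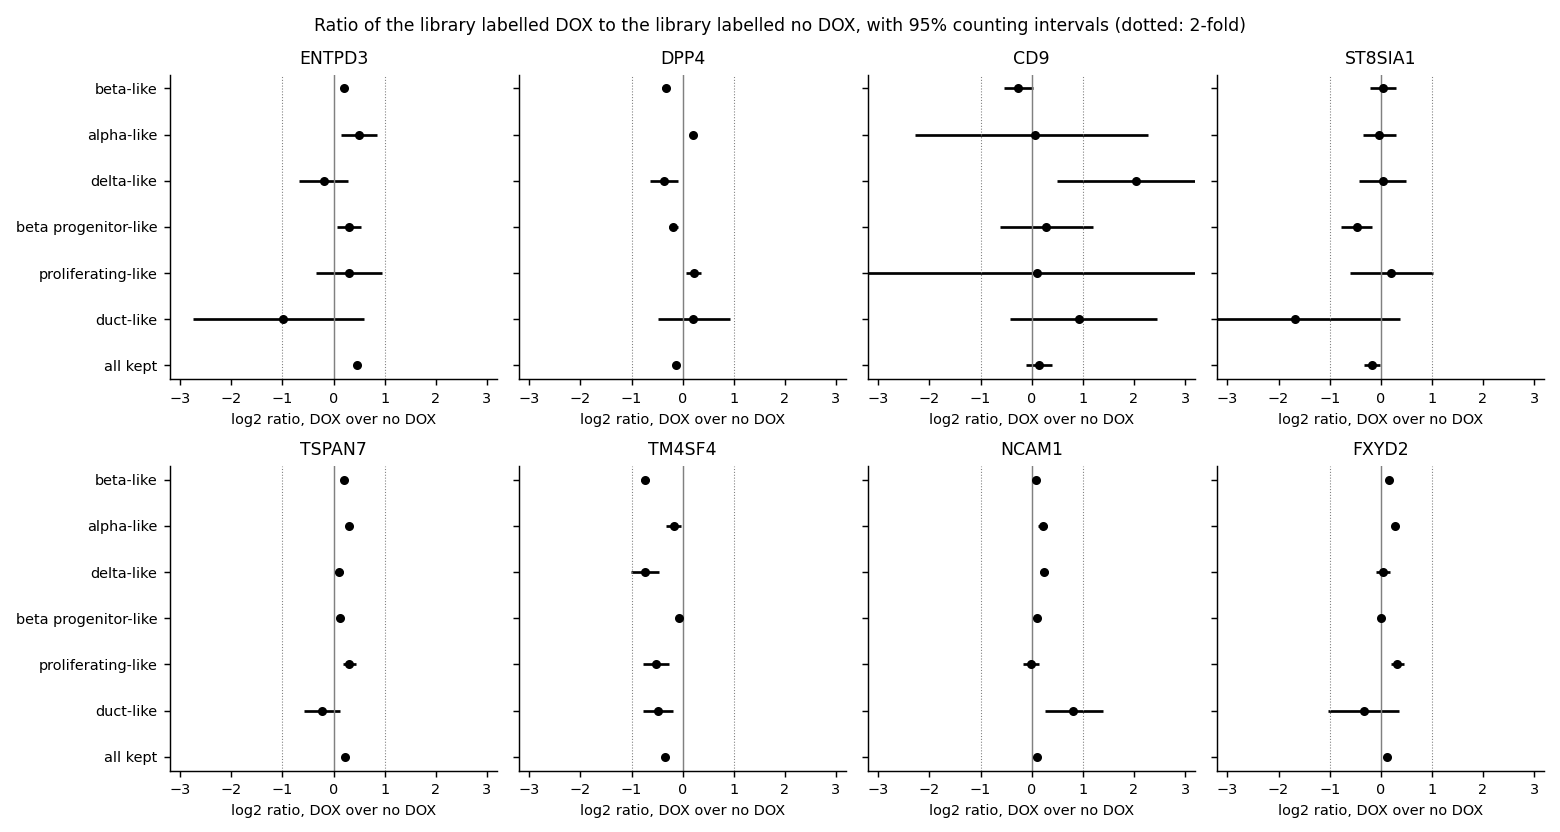
Log2 ratio of the DOX labelled library over the no DOX labelled one for the 8 genes in 6 classes and in all kept cells, with exact binomial 95% intervals of the counts. Dotted lines mark 2-fold, and intervals of CD9 and ST8SIA1 that run past the axis are cut there. TM4SF4 lay below 0 in every class, and DPP4 lay below 0 in beta-like cells and above 0 in alpha-like cells.

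The genes with the pattern most like each of the 8 were sought over 22 profiles, 11 finer clusters in each of 2 libraries, among 13064 genes. The profiles share libraries and differ in depth, so the correlations are descriptions. For ENTPD3 the highest value was that of GNAT3 (Pearson r 0.954), and SYNDIG1L (0.912) was also among the genes most like it. DPP4 was most like GLUL (0.907), AC006369.2 (0.905) and PYY (0.899), the gene of peptide YY. TM4SF4 was most like KIF1C (0.900), FGFR3 (0.900) and PYGL (0.883), and CD9 was most like FBLN5 (0.913), GRIN2A (0.894) and MEG3 (0.875). The genes most like TSPAN7 were SAR1B (0.952), CASC4 and ORMDL2, and those most like NCAM1 were NAV3 (0.923), ADGRL1 and EXD2. Those most like FXYD2 were EVA1B (0.935), BNIP3 and FXYD6-FXYD2, which overlaps FXYD2 on the same strand. ST8SIA1 had the lowest values, with FKBP9 (0.828), MED14 (0.780) and SLC2A13 (0.768). Among the 8 genes themselves the highest correlation was that of DPP4 with FXYD2 (0.642) and the lowest that of DPP4 with CD9 (-0.532).

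A list of 93 related genes, from the same families and from other antigens used to sort islet cells, was described in the same way. Of 57 that reached 5 CPM in beta-like or alpha-like cells, 3 were at least 2-fold higher and 10 at least 2-fold lower in beta-like cells, beside 5.4% higher and 6.08% lower over all genes tested, with a median log2 ratio of -0.30. Of 56 that reached 5 CPM over all kept cells, 0 differed 2-fold between the libraries, and their log2 ratios ran from -0.84 for TM4SF1 to 0.56 for FXYD3. The L6 family gene TM4SF1, which was also a marker used to name the duct-like cells, was at 794 CPM there and at most 1.02 CPM elsewhere. Among 28 tetraspanins, TSPAN6 (160.0 CPM) and TSPAN18 (133 CPM) were highest in duct-like cells, 14.1-fold and 28.0-fold above the next class.

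Of 8 ectonucleotidases other than ENTPD3, 5 reached 5 CPM in beta-like or alpha-like cells, and 0 were 2-fold higher and 1 was 2-fold lower in the beta-like cells (NT5E, named after its values were seen), beside 5.4% and 6.08% of all genes. ENTPD4, an enzyme of internal membranes, was at 73.2 CPM among beta cell progenitor-like and 29.8 CPM in beta-like cells. ENTPD6 was at 28.1 CPM among beta cell progenitor-like, 24.4 CPM in alpha-like and 15.2 CPM in beta-like cells. Of the peptidases related to DPP4, DPP7 was at 204 CPM in alpha-like and 144 CPM in beta-like cells. DPP3, DPP8 and DPP9 were highest in beta cell progenitor-like cells, 1.34-fold, 1.49-fold and 1.21-fold above the next class. Over all genes tested, the median log2 ratio of beta-like over beta cell progenitor-like cells was -0.58. FXYD3, another regulator of the sodium pump, was at 188 CPM in alpha-like and 34.9 CPM in beta-like cells. The pump subunit ATP1B1 was at 191 and 133 CPM in the same classes and highest in duct-like cells, at 370 CPM.

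Among enzymes that build gangliosides and polysialic acid, UGCG, B4GALT5, B4GALT6 and ST8SIA3 were highest in beta cell progenitor-like cells. B4GALT5 was at 119 CPM there and at 53.0 CPM in the next class, and the others were 1.46-fold to 1.57-fold above their next class. Genes in general were also higher in this class than in beta-like cells, with a median log2 ratio of beta-like over it of -0.58. Of the adhesion molecules related to NCAM1, NFASC and NRCAM were highest in beta cell progenitor-like cells (145 and 64.2 CPM) and ALCAM and CADM1 in delta-like cells (171 and 126 CPM). NRCAM was at 10.4 CPM in beta-like and 45.9 CPM in alpha-like cells. Of the other sorting antigens, CD24 was at 1477 CPM among beta cell progenitor-like and 773 CPM in beta-like cells, PROM1 at 43.9 and 9.01 CPM in the same classes, F3 (tissue factor) at 116 CPM in duct-like cells and ADGRG1 at 20.8 CPM in delta-like cells.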

How the data were processed

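Single-cell RNA was measured by 10x in 2 libraries, 1 per group. The authors deposited raw UMI counts per gene and barcode, not normalized, in matrices whose headers name Cell Ranger 3.0.2. Per the labels' processing notes the genome was GRCh38. For the study's own analysis the methods name kallisto and bustools on Ensembl GRCh38 transcripts, then Scrublet and scanpy, but the annotation behind the deposited Cell Ranger matrices is not given in the sources used here. Depth ranged from 520849221 to 550240855 UMIs per library.

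From these counts, barcodes under 1000 UMIs were removed, and Scrublet in scanpy 1.11.5 was run per library and removed 7895 of 29703 and 8338 of 31456 barcodes as predicted doublets. Clusters were found by Leiden at resolution 0.2 and, for the finer clusters, 0.5, on a graph of 3 neighbours in each library over 50 principal components, with the 8 genes left out. A cluster was named when the markers of a class had a mean log2 ratio over 1 with at least 3 markers, and a cluster with more than 5 metallothionein genes among its 10 leading genes was left unnamed, a rule set after the data had been seen. The markers came in part from the study's own marker table of these libraries and are not independent evidence of the names. UMIs were summed per class and library, with exact Poisson intervals for levels, exact binomial intervals for shares and for ratios of counts, and no test, since each group was 1 library. Fold counts used genes at 5 CPM in either class compared. The scripts were tested on simulated data.

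The 8 genes and all gene lists were chosen with earlier results of these data known. Named genes were the 8, SOX9, the 3 genes most like each by Pearson r of log2(CPM + 1), and in each related family at most 4 genes at 10 CPM with the largest ratio of the highest over the second class. One gene that this rule names is not reported here. PNLIP, POU5F1, GCG and INS were named as markers. Alternatives varied the filters, clustering, scaling, thinning and fold.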

Additional observations from a re-analysis of the deposited data

Results flagged for a closer look

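DPP4 differed between the libraries in opposite directions by class, beyond counting error in 5 of them. As log2 ratios of the DOX labelled over the no DOX labelled library, DPP4 was at -0.33 in beta-like, -0.36 in delta-like and -0.18 in beta cell progenitor-like cells, and 0.20 in alpha-like and 0.21 in proliferating progenitor-like cells. Alpha-like markers in the last of these classes summed to 7699 and 12690 CPM in the no DOX and DOX labelled libraries and GCG was at 6205 and 10976 CPM, and the part of these in the DPP4 values was not tested. With 1 library per group the difference between the classes was not tested. DPP4 kept its sign in beta-like and in alpha-like cells under all 12 alternatives, between -0.39 and -0.15 and between 0.16 and 0.23.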

How the results depend on the processing

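Of 198 alternative values for the counts of the 8 genes and the share with both CD9 and ST8SIA1, 184 stayed within 1.5 times the reported one or within its interval and 14 did not. At 1.5-fold in place of 2-fold, the genes lower in beta-like cells came to 2 against beta cell progenitor-like, 1 against delta-like and 3 against proliferating progenitor-like cells, and 1 gene was apart between the libraries in beta-like cells. At 3-fold, 1 gene was higher than in delta-like cells, 2 were higher than in duct-like cells and 1 was lower than in alpha-like cells. With doublets kept these last counts were also 2 and 1, and with means of log-normalized values 1 gene was lower than in alpha-like cells. In the DOX labelled library alone 2 genes were lower than in duct-like cells. With 15 neighbours, and with each cell thinned to 5000 UMIs, 2 genes were lower than in proliferating progenitor-like cells. The share of all genes was counted only at 2-fold under the reported settings. These alternative counts therefore stand without it and do not show whether the 8 genes differ from genes in general. Not thinned, 0.0417% of beta-like cells held both CD9 and ST8SIA1. Of all 781 alternatives for single gene ratios, 588 stayed within the counting interval of the reported value, 192 left it and 1 was labelled reversed. That label did not cover every change of sign. Of the 271 for 21 gene ratios past 2-fold, 270 kept their direction and 256 stayed past 2-fold, and the exception was DPP4 in beta-like over proliferating progenitor-like cells, at 0.067 with 15 neighbours in place of -1.84. The cause of these differences was not tested. Leaving the UMIs of INS, GCG and SST out of the totals was chosen after seeing the data. Over all kept cells DPP4 was lower in the DOX labelled library, but 1 of 9 alternatives had the other sign, up to 0.14. No paired analysis was possible because each group was 1 library. Depth limits CD9 and ST8SIA1 most, and no value here measures the spread between cultures.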
